A study of Mus musculus with 2 samples.

Results

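The cytosolic ribosomal protein (RP) genes encode the proteins of the ribosome that translates messenger RNA in the cytoplasm. They were chosen by gene symbol alone: symbols that begin with Rpl or Rps followed by a number, with Rplp0, Rplp1 and Rplp2, and without the S6 kinase genes (Rps6k) and pseudogene names ending in -ps. This rule gave 85 of the 31053 genes in the count tables, 52 with large subunit symbols and 33 with small subunit symbols. Of these, 76 are standard subunits and 9 are paralogs, retrogene copies or binding proteins that the symbol rule also takes in: Rpl3l, Rpl7l1, Rpl10l, Rpl22l1, Rpl36al, Rpl39l, Rps27l, Rps27rt and Rps19bp1. Rpl10l had no UMI in any kept nucleus, and the other 84 had at least 1 UMI in both libraries.

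The nuclei came from iWAT, the inguinal subcutaneous fat pad, of male mice given 4 weeks of Western diet, with the lymph node cut away and the tissue of 3 mice pooled per library. The library labelled Lexis WT stands for mice with floxed Lexis alleles and no Cre, and the library labelled Lexis KO for littermates that also carry Adipoq-Cre, which acts in adipocytes, both on a C57BL/6 background. The series asked how cells of the depot differ when adipocytes lack Lexis, a long noncoding RNA. The study gives an age range for most of its mice, and none for the mice of this experiment alone. File names give each library the other genotype than its label does, and without a value for Lexis the labels could not be checked; the names WT-labelled and KO-labelled library follow the labels. With 1 library per group there was no replicate and no test was made. Every interval is a 95% interval that covers counting error only.

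A ribosome is built from a large and a small subunit, each an assembly of ribosomal RNA with many proteins that are each present in a single copy, apart from the acidic P proteins of the stalk. RP genes tend to have short introns and give short, abundant messenger RNAs that are mostly found in the cytoplasm. Many begin with a run of pyrimidines, the 5′ terminal oligopyrimidine tract, through which their translation responds to growth signals. A nuclear library can hold both their new transcripts and cytoplasmic RNA carried along with the nuclei.

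After barcodes with fewer than 500 detected genes or more than 5% mitochondrial UMIs (unique molecular identifiers, each marking 1 captured molecule) and doublets were left out, 3503 nuclei of the WT-labelled library and 2852 of the KO-labelled library were kept. Nuclei were clustered without the RP genes, so that the cell classes did not depend on them. The libraries stood apart: the kept nuclei had a median of 1195 UMIs in the WT-labelled library and 3879 in the KO-labelled library, and most clusters came almost wholly from 1 library. Adipocytes, for example, fell into cluster 4 with 419 nuclei of the WT-labelled library and 5 of the KO-labelled library, and cluster 1 with 0 and 890. Named classes passed between 7 and 19 of their markers in each cluster. Libraries shared 12 barcodes, of which 10 were among the kept nuclei. Differences between the libraries can therefore not be told apart from differences in preparation and depth, here and in every ratio given below.

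RP genes took a larger share of the RNA of lymphocytes than of adipocytes, and a larger share of each of the 7 classes or clusters found in both libraries in the WT-labelled library than in the KO-labelled library. In the WT-labelled library, RP genes made up 3.96% of the UMIs of lymphocytes, 3.58% of endothelial nuclei, 2.46% of myeloid nuclei, 2.24% of ASPCs (adipose stem and progenitor cells, here with fibroblasts) and 1.09% of adipocytes. In the KO-labelled library the corresponding shares were 2.03%, 1.55%, 1.44%, 1.39% and 0.450%. Lymphocytes stood first and adipocytes last of the classes in both libraries. The lymphocyte share was 3.64-fold that of adipocytes (95% interval 3.58 to 3.69) in the WT-labelled library and 4.51-fold (4.37 to 4.65) in the KO-labelled library. In nuclei of 2000 to 4000 UMIs it was 2.80-fold and 1.65-fold. Mural nuclei, with 2.66% and 1.07%, and a cluster led by dividing-cell genes, with 2.67% and 1.69%, lay between these ends. Of neighbours in this order, the dividing cluster and mural nuclei, mural and myeloid nuclei, and the unnamed Ccl21a cluster (2.31%) and ASPCs of the WT-labelled library had overlapping intervals. Myocyte nuclei, which came only from the KO-labelled library (52 nuclei), had 0.703%. The lymphocyte class differed in makeup, with 1231 and 779 nuclei in clusters 0 and 2 of the WT-labelled library. In the KO-labelled library, 92 of its 105 nuclei were in cluster 14. The top genes of cluster 0 included the B cell genes Cd79a and Cd79b, and those of cluster 2 the T cell genes Cd3d and Cd3e. Cluster 14 had the natural killer cell gene Ncr1 among its top genes. Every lymphocyte ratio between the libraries thus compares largely different kinds of lymphocytes.

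**Figure D1:**
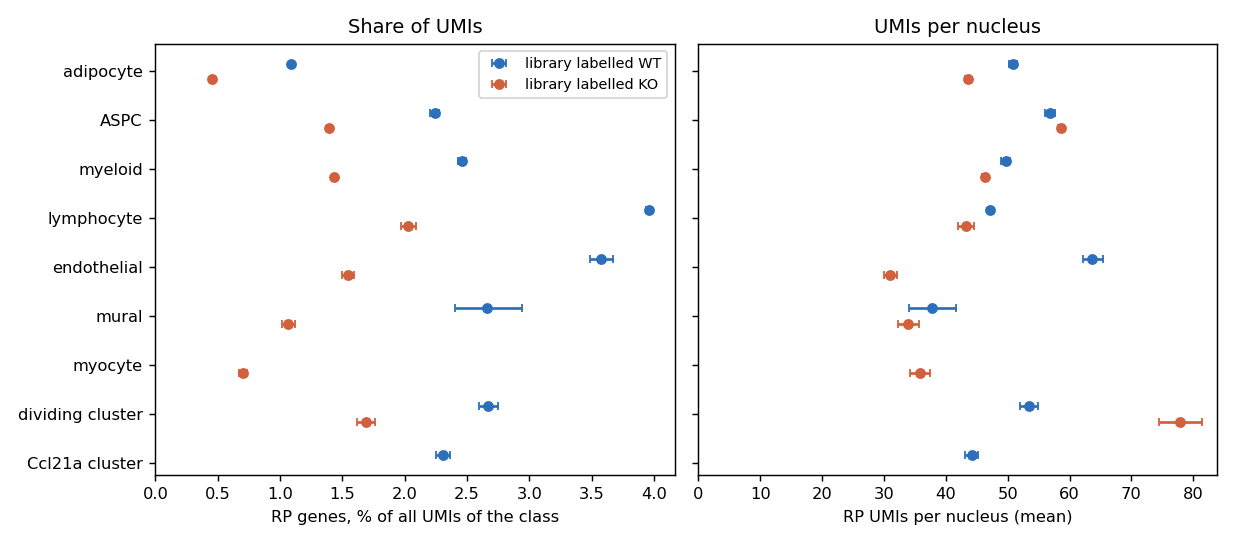
Left, the share of all UMIs of a class that came from RP genes (percent); right, the mean number of RP UMIs per nucleus; points are the libraries and bars are exact 95% intervals for counting error. The share ran from 0.450% in adipocytes of the KO-labelled library to 3.96% in lymphocytes of the WT-labelled library, while the means on the right lay between 31.1 and 63.7 UMIs apart from the dividing cluster of the KO-labelled library (77.9).

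The ratio of the RP share, labelled KO over labelled WT, was 0.413 in adipocytes (0.406 to 0.420), 0.620 in ASPCs (0.609 to 0.631), 0.584 in myeloid nuclei (0.574 to 0.594) and 0.512 in lymphocytes (0.497 to 0.528). It was 0.432 in endothelial nuclei, 0.400 in mural nuclei (0.357 to 0.449, from only 10 and 44 nuclei) and 0.633 in the dividing cluster. The median share of a single nucleus gave the same direction, with 1.13% and 0.506% in adipocytes and 3.85% and 1.87% in lymphocytes. Depth and Malat1 differed between the libraries together with these ratios, and the mitochondrial share was lower in adipocytes of the KO-labelled library but higher in its other classes found in both libraries. UMIs per nucleus were 2.07-fold higher in adipocytes and 1.80-fold higher in lymphocytes of the KO-labelled library. Malat1, a nuclear long noncoding RNA, took 32.4% of adipocyte UMIs in the WT-labelled library and 19.9% in the KO-labelled library, and 20.7% and 4.95% in myeloid nuclei. Mitochondrial genes took 0.907% and 0.728% of adipocyte UMIs, and 1.77% and 1.99% of myeloid UMIs. With mitochondrial genes and Malat1 taken out of the total, the adipocyte ratio was 0.347. The part of these measures in the ratios was not tested beyond the comparisons given here. ASPCs and myeloid nuclei also differed in cluster makeup. ASPC cluster 8 held 294 nuclei of the WT-labelled library and 30 of the KO-labelled library. Cluster 5 held 5 and 382, and cluster 6 held 0 and 374. Myeloid clusters 7 and 12 held 315 and 20, and 99 and 35. Myeloid clusters 3 and 9 held 0 and 522, and 20 and 245. The ASPC and myeloid ratios thus compare largely different clusters, and the part of this makeup was not tested.

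Counted per nucleus and not per UMI, the RP genes differed far less. A kept nucleus held on average 49.1 RP UMIs in the WT-labelled library and 48.0 in the KO-labelled library, a ratio of 0.977 (0.970 to 0.984), although it held 2.90-fold more UMIs of all genes in the KO-labelled library. Adipocytes had 50.8 and 43.5 RP UMIs per nucleus, ASPCs 56.9 and 58.6, myeloid nuclei 49.7 and 46.4, and lymphocytes 47.1 and 43.3. Between lymphocytes and adipocytes of the WT-labelled library the means were likewise close, at 47.1 RP UMIs of 1187 UMIs in all and 50.8 of 4664. Over all classes they ran from 37.7 to 63.7 in the WT-labelled library and from 31.1 to 77.9 in the KO-labelled library. Medians ran from 30 to 44 RP UMIs over all classes and both libraries, and no kept nucleus was without an RP UMI. Endothelial nuclei (63.7 and 31.1 RP UMIs per nucleus, ratio 0.488) and the dividing cluster (53.4 and 77.9, ratio 1.46) stood apart from this pattern.

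A few nuclei carried much of the RP RNA in some classes. Nuclei with at least 200 RP UMIs numbered 44 in the WT-labelled library (1.26% of its nuclei) and held 9.37% of its RP UMIs, and 39 in the KO-labelled library (1.37%) held 14.7%. In endothelial nuclei of the WT-labelled library, 4 of 94 nuclei held 32.9% of the RP UMIs, and in the dividing cluster of the KO-labelled library, 3 of 26 held 49.1%. Among ASPCs of the KO-labelled library, 23 of 786 nuclei held 29.3%, and 1 nucleus alone had 4179 RP UMIs. These nuclei had a median mitochondrial share of 2.38% in the WT-labelled library and 2.36% in the KO-labelled library, against 1.37% and 1.46% in the others. Without them, endothelial nuclei had 44.6 and 31.1 RP UMIs per nucleus (ratio 0.696), the dividing cluster 51.4 and 44.8 (ratio 0.871) and ASPCs 47.3 and 42.7 (ratio 0.903, 0.885 to 0.921), so that the direction turned in the dividing cluster and in ASPCs. The ratios of the share were then 0.430 in adipocytes, 0.516 in ASPCs, 0.545 in myeloid nuclei, 0.507 in lymphocytes, 0.532 in endothelial nuclei and 0.382 in the dividing cluster.

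In adipocytes the RP share was lower in deeper nuclei. Across the 895 adipocytes of the KO-labelled library, Spearman's rho of the RP share with total UMIs was -0.84, and across the 419 of the WT-labelled library it was -0.70; the share holds the total in its denominator, so these values are descriptions. In the other classes rho ran from -0.20 in endothelial nuclei of the WT-labelled library to -0.85 in those of the KO-labelled library. The share did not fall throughout, since in the WT-labelled library it was 1.75% in ASPCs with 2000 to 4000 UMIs and 2.02% in those with 4000 to 8000, and 3.59% in lymphocytes with 1000 to 2000 UMIs and 3.88% in those with 2000 to 4000. Nuclei with at least 200 RP UMIs, 9 of 299 ASPCs and 18 of 2011 lymphocytes there, held 19.3% and 7.25% of the RP UMIs. Their part in these windows was not tested. When adipocytes of the KO-labelled library were ordered by total UMIs, the lowest tertile (median 4089 UMIs) had 0.847% RP UMIs, the middle tertile 0.529% and the highest (median 15013 UMIs) 0.322%. The RP UMIs per nucleus were 33.5 in the lowest and 55.1 in the highest tertile. At matched depth the difference between the libraries kept its direction, and its size varied between windows. Among adipocytes with 2000 to 4000 UMIs (136 and 108 nuclei), the share was 1.38% in the WT-labelled library and 0.969% in the KO-labelled library, a ratio of 0.700 (0.670 to 0.731). Among ASPCs with 1000 to 2000 UMIs it was 2.85% and 2.07% (ratio 0.726), and among myeloid nuclei in that window 2.81% and 2.17% (0.773). In all, 18 windows of depth held at least 10 nuclei of a class from each library, and in 18 of them the ratio lay below 1 beyond counting error, from 0.370 in endothelial nuclei with 2000 to 4000 UMIs to 0.805 in those with 500 to 1000.

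**Figure D2:**
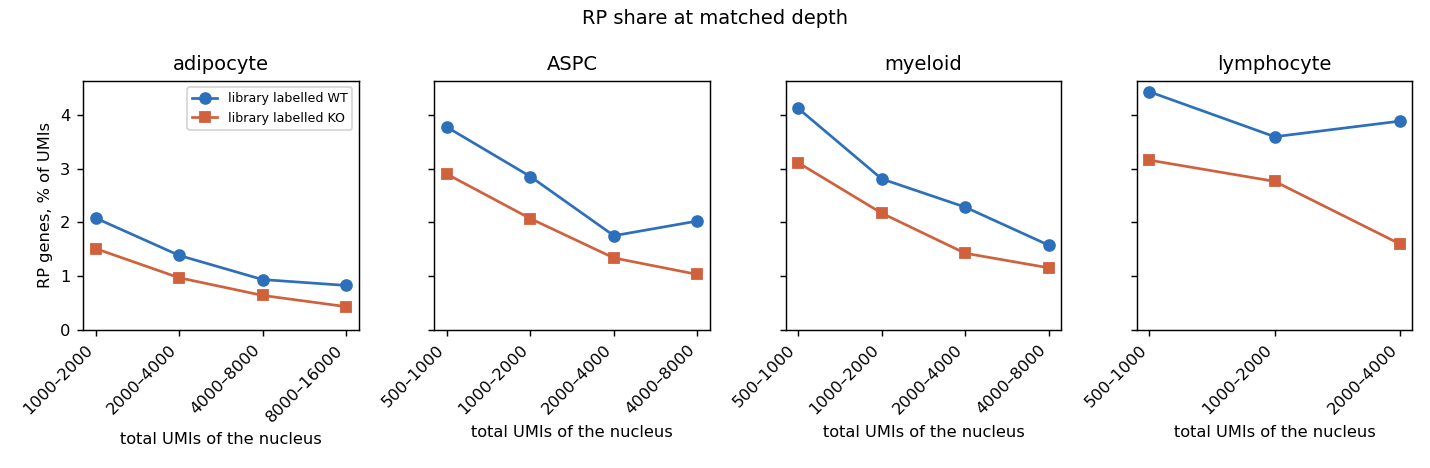
Share of UMIs from RP genes (percent, vertical axis) in nuclei grouped by their total UMIs (horizontal axis), for the WT-labelled library (circles) and the KO-labelled library (squares) in 4 cell classes; only windows with at least 10 nuclei from each library are drawn. The KO-labelled library lies below the WT-labelled library in every window shown, and in adipocytes both fall with depth, from 2.08% to 0.826% and from 1.51% to 0.431%.

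Clusters with nuclei of both libraries did not all share the direction of their class. Of 8 clusters with at least 10 nuclei from each library, 6 had a ratio of the RP share below 1 beyond counting error and 2 above it. The ratio was 0.849 in lymphocyte cluster 2, 0.681 in cluster 12 and 0.378 in cluster 9, both myeloid. It was 1.88 (1.77 to 1.99) in myeloid cluster 7 and 2.35 (2.26 to 2.45) in ASPC cluster 8. In these 2 clusters the KO-labelled library contributed 20 and 30 nuclei with a median of 931.5 and 1196.5 UMIs, against 315 and 294 nuclei with 1447 and 1682.5 UMIs of the WT-labelled library. Their mitochondrial share was 3.59% in cluster 7 and 3.02% in cluster 8, against 1.65% and 1.82% in the WT-labelled library, and Malat1 took 8.30% and 7.97%, against 18.1% and 27.3%; the part of these measures was not tested. Without nuclei of at least 200 RP UMIs the ratios were 1.44 and 1.85.

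The members kept nearly the same order of abundance in both libraries. Levels are given as CPM, the UMIs of a gene per 1000000 UMIs of the class or library. They were not divided by transcript length, because reads come from the 3′ end. Standard members ran from 50.6 to 731 CPM in the WT-labelled library and from 10.6 to 271 CPM in the KO-labelled library. Spearman's rho between the libraries over the 85 members was 0.948, a description over genes that share each library. Small subunit gene Rps24 led in the WT-labelled library with 2.81% of all RP UMIs, and Rps29 (2.50%), Rpl41 (2.20%) and Rpl37a (2.18%) were also among its most abundant members. In the KO-labelled library Rpl41, which encodes the smallest RP, led with 3.09%, and Rps29 had 2.83%, Rpl37a 2.20% and Rps24 2.12%. Large subunit symbols took 56.3% of the RP UMIs of adipocytes in the WT-labelled library (55.7 to 57.0) and 59.7% in the KO-labelled library (59.2 to 60.1). The corresponding values were 55.0% and 56.5% in lymphocytes.

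Nearly all members were lower in CPM in the KO-labelled library, in each of the 4 main classes. In adipocytes, 81 members had at least 50 UMIs over both libraries. Of these, 66 had a CPM ratio of at most 0.5 and 0 a ratio of at least 2, beside 17.6% and 25.9% of the 11373 genes measured in that class. In ASPCs, 5 of 80 members had a ratio of at most 0.5, beside 8.63% of genes, and 0 a ratio of at least 2, beside 25.1%. In myeloid nuclei the counts were 12 of 80, beside 13%, and 0, beside 24.6%. In lymphocytes they were 41 of 81, beside 20.9%, and 0, beside 16.1%. The members' share past 0.5 was thus well over the background in adipocytes and lymphocytes and near it in ASPCs and myeloid nuclei, where the members moved together by less than a factor of 2. With ratios taken relative to genes of the same intronic length, it was below the background in each of the 4 classes, at 2 of 79 beside 12.8% in adipocytes and 3 of 79 beside 15.0% in lymphocytes. With mitochondrial genes and Malat1 taken out of the total, it was above the background in ASPCs and myeloid nuclei too. It was then 30 of 80 beside 16.3% and 46 of 80 beside 20.3%. All these counts include the nuclei with at least 200 RP UMIs, without which the share ratio of ASPCs was 0.516 and not 0.620. The members' median log2 ratio in CPM was -1.28 in adipocytes, -0.66 in ASPCs, -0.79 in myeloid nuclei and -1.03 in lymphocytes, beside -0.01, 0.14, 0.09 and -0.14 over all genes measured. Of the 80 members measured in all 4 classes, 75 were below 1 beyond counting error in each class and 78 had a ratio below 1 in each, beside 12.3% and 34.9% of the 6280 genes measured in all 4. By class, 79 of 81, 76 of 80, 77 of 80 and 77 of 81 members were below 1 beyond counting error in adipocytes, ASPCs, myeloid nuclei and lymphocytes, beside 35.2%, 21.6%, 27.5% and 20.4% of all genes. The members with a ratio above 1 in at least 1 class were Rpl7l1 and Rps27l. This held for CPM and not for UMIs per nucleus. Per nucleus, 41 of 81 members were below 1 and 5 above it beyond counting error in adipocytes (median ratio 0.854), beside 6.52% and 69.0% of all genes. The counts were 4 and 11 of 80 in ASPCs (median 1.05), beside 4.12% and 61.4%, 20 and 6 of 80 in myeloid nuclei (0.925), beside 9.14% and 58.4%, and 15 and 4 of 81 in lymphocytes (0.878), beside 2.96% and 42.3%. Taking mitochondrial genes and Malat1 out of the total moved the median of all genes in adipocytes from -0.01 to -0.26 and that of the members from -1.28 to -1.53.

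**Figure D3:**
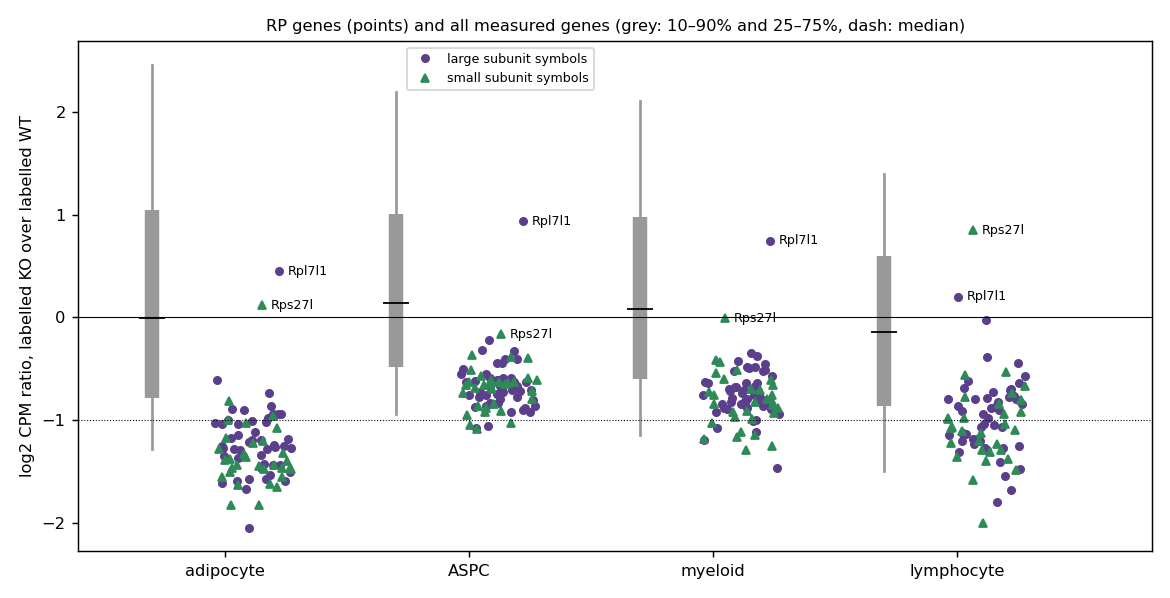
Log2 ratio of CPM (labelled KO over labelled WT, vertical axis) of each RP gene with at least 50 UMIs over both libraries, in 4 cell classes, beside all measured genes as grey bars (10 to 90% and 25 to 75%, with the median as a dash); the dotted line marks a ratio of 0.5. RP genes lie below 0 in each class apart from Rpl7l1 in 4 classes and Rps27l in adipocytes and lymphocytes.

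The members with the smallest ratios differed between classes. In adipocytes they were Rpl13a, a large subunit protein, with 21.0 and 5.08 CPM (ratio 0.242, 0.155 to 0.380), Rps24 with 333 and 93.7 CPM (0.282, 0.254 to 0.313) and small subunit gene Rps16 with 172 and 48.9 CPM (0.283, 0.245 to 0.328). Among those of ASPCs were Rps27a, which encodes ubiquitin fused to a small subunit protein, with 535 and 252 CPM (0.471), and Rpl13a (0.474). In myeloid nuclei Rpl12 had 267 and 96.8 CPM (0.363, 0.302 to 0.435), Rps3 261 and 107 CPM (0.409) and Rps6, the substrate of S6 kinase, 189 and 79.5 CPM (0.420). In lymphocytes they were Rps27rt (0.251, 0.030 to 0.935, from 85 and 2 UMIs), Rpl13a (0.288, from 185 and 5 UMIs) and Rpl31 (0.312, from 512 and 15 UMIs). Rpl13a and Rps27rt have near-identical copies in the genome that could take or share their reads. This was not tested here, and their levels are uncertain.

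The stalk proteins followed the rest of the family. Rplp0, which anchors the stalk, had 103 and 43.5 CPM in adipocytes (ratio 0.420, 0.353 to 0.501) and 403 and 205 CPM in lymphocytes (0.509). Rplp1 had 189 and 78.4 CPM in adipocytes (0.414) and 860 and 380 CPM in lymphocytes (0.442). Rplp2 had 157 and 81.7 CPM in adipocytes (0.522) and 600 and 246 CPM in lymphocytes (0.410). Their ratios in ASPCs were between 0.607 and 0.684, and in myeloid nuclei between 0.565 and 0.696.

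The largest ratios belonged to paralogs in each main class. Rpl7l1, a paralog of the large subunit gene Rpl7, had 23.0 and 31.4 CPM in adipocytes (ratio 1.37, 0.993 to 1.92), 22.4 and 42.8 CPM in ASPCs (1.91, 1.15 to 3.37), 29.7 and 49.7 CPM in myeloid nuclei (1.68, 1.09 to 2.66) and 42.7 and 49.1 CPM in lymphocytes (1.15, 0.557 to 2.15). Rps27l, a paralog of Rps27 known as a p53 target, had 18.9 and 20.6 CPM in adipocytes (1.09, 0.759 to 1.59) and 62.0 and 112 CPM in lymphocytes (1.80, 1.13 to 2.76). In ASPCs and myeloid nuclei its ratios were 0.894 (0.636 to 1.28) and 0.996 (0.734 to 1.37). The standard partners went with the family, since Rpl7 had 87.5 and 29.5 CPM and Rps27 140 and 50.6 CPM in adipocytes. Rpl7l1 thus made up 20.8% of the UMIs of the pair Rpl7 and Rpl7l1 in adipocytes of the WT-labelled library and 51.6% in the KO-labelled library. The rise was not particular to adipocytes, with 10% and 26.6% in ASPCs, 14.6% and 30.6% in myeloid nuclei and 12.3% and 26.8% in lymphocytes. In lymphocytes the intervals overlapped. Rpl35 followed in adipocytes (58.3 and 38.4 CPM, 0.658) and ASPCs (0.858), Rpl41 in myeloid nuclei (0.788) and Rpl36al, a retrogene copy of Rpl36a, in lymphocytes (0.985, 0.644 to 1.45).

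Promoters of 65 of the 85 members, in 77 entries, were found in the RefSeq table (build GRCm38.p6, the mm10 of the files), each with 250 bases before and 50 bases after an annotated start. The motif CCGGAA, read on both strands and known as the core of ETS family sites, was in 46.8% of the members' entries and in 14.9% of all 32851 entries of the same length. ATGGCG, read on both strands and known from YY1 sites, was in 31.2% and 8.93%. TATAAA, on both strands, was in 9.09% and 13.6%. CTTCC or CTCTT on the gene's strand, from 10 bases before to 20 bases after the start, as a short sign of a pyrimidine run, was in 31.2% and 9.54%. These matches describe the sequence and not bound sites. The 60 bases from 40 before to 20 after the start are shown for some members. Rps24 (chr14:24490638-24490697, + strand) led in the WT-labelled library. Rps27 (chr3:90213629-90213688, - strand) is shown with its paralog Rps27l (chr9:66946046-66946105, + strand). The other paralogs shown are Rpl22l1 (chr3:28805468-28805527, + strand), Rpl7l1 (chr17:46782637-46782696, - strand) and Rpl3l (chr17:24727786-24727845, + strand). The sequences read 5′ to 3′ on the gene's strand, and capitals mark CCGGAA on either strand or, near the start, CTTCC or CTCTT.
Rps24: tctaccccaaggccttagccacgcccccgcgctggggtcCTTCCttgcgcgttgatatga
Rps27: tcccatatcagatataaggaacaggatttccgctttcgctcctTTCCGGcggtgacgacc
Rps27l: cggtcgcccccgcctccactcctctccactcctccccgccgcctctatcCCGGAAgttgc
Rpl22l1: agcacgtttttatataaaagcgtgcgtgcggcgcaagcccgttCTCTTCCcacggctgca
Rpl7l1: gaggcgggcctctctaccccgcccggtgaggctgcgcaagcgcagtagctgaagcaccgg
Rpl3l: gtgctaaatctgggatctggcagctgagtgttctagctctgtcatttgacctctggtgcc

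RP genes have short introns, and intronic length moved with the ratios of all genes. Of the members, 83 had an intronic length in the annotation, with a median of 1509 bases, and 64 had at most 3000. The annotation is of another build. For some members, among them Rpl11 (22467 bases), Rpl13a, Rps28 and Rpl26, the length exceeds the span of the gene in mm10, so their bins are uncertain. Genes outside the family with at most 1000 intronic bases had a median log2 ratio of -0.87 in adipocytes, and those with over 100000 had 1.45. The corresponding medians were -0.60 and 1.58 in ASPCs, -0.79 and 1.50 in myeloid nuclei, and -0.85 and 1.28 in lymphocytes. Relative to other genes in the same bin of intronic length, the members' median log2 ratio was -0.50 in adipocytes, -0.16 in ASPCs, -0.13 in myeloid nuclei and -0.27 in lymphocytes, and 2 of 79, 0 of 78, 0 of 78 and 3 of 79 members were at or below a ratio of 0.5. Over all genes, 12.8%, 9.97%, 12.7% and 15.0% were at or below it under the same correction. In adipocytes, members with at most 1000 intronic bases had a median of -1.33, below the -0.87 of other genes in that bin. Whether reads in introns were counted was not given in the sources used here.

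**Figure D4:**
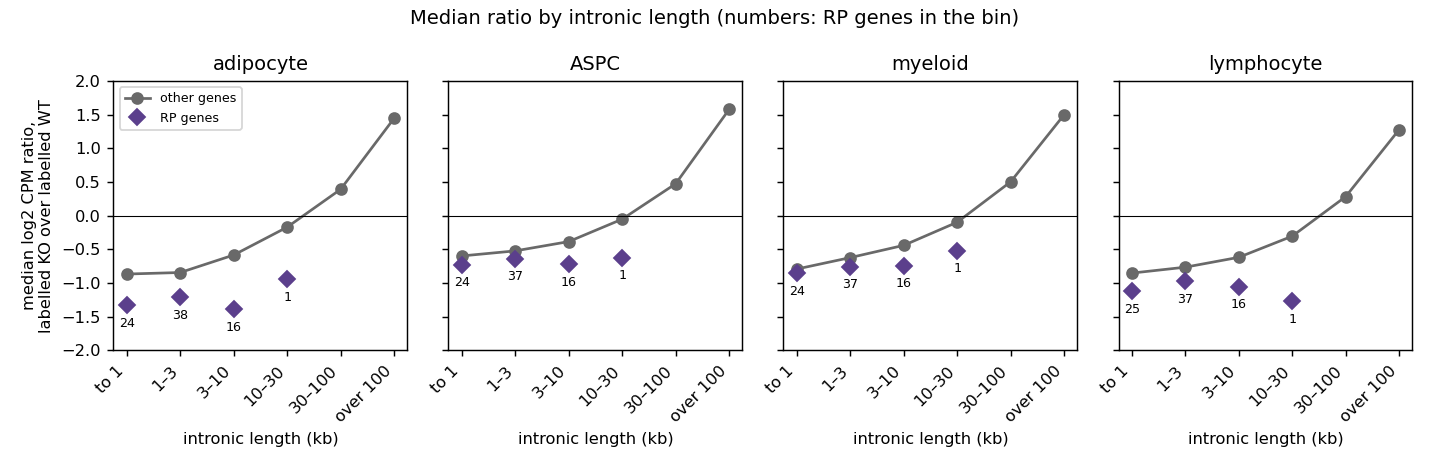
Median log2 ratio of CPM (labelled KO over labelled WT, vertical axis) of RP genes (diamonds, with the number of genes) and of other measured genes (circles) by total intronic length of the gene (kb, horizontal axis) in 4 cell classes. The other genes run from -0.87 to 1.45 in adipocytes from the shortest to the longest introns, and the RP genes fill only the bins up to 30 kb. The highest of these bins holds only Rpl11, whose annotated intronic length exceeds its span in mm10.

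Rpl3l, the striated muscle paralog of Rpl3, was the member most restricted to a class. The 52 myocyte nuclei of the KO-labelled library held 227 UMIs of Rpl3l (858 CPM), and 48 of them (92.3%) had at least 1. The remaining nuclei of that library held 16 UMIs in all (1.04 CPM), so that the ratio was 823 (496 to 1465). Adipocytes had 6 UMIs in the KO-labelled library, in 5 of 895 nuclei (0.559%) of higher depth (median 7852 UMIs against 5074 in myocyte nuclei), and 3 in the WT-labelled library. No UMI was seen in ASPCs, myeloid nuclei, lymphocytes or endothelial nuclei of the WT-labelled library, and 3 UMIs, the most that a count of 0 was taken to allow, would be 1.26 CPM in its lymphocytes. Rpl3l held 12.2% of all RP UMIs of myocyte nuclei, ahead of Rpl41 with 3.49%, and was the largest there. Rpl3 itself had 13 UMIs in myocyte nuclei, 0.699% of their RP UMIs, close to the 0.626% in adipocytes and 0.764% in ASPCs of the KO-labelled library. Rpl3l made up 94.6% of the UMIs of the pair in myocyte nuclei (90.9 to 97.1) and 2.40% in adipocytes of that library. Large subunit symbols took 65.3% of the RP UMIs of myocyte nuclei, and 60.4% (58.0 to 62.8) without Rpl3l, beside 57.9% in the remaining nuclei.

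**Figure D5:**
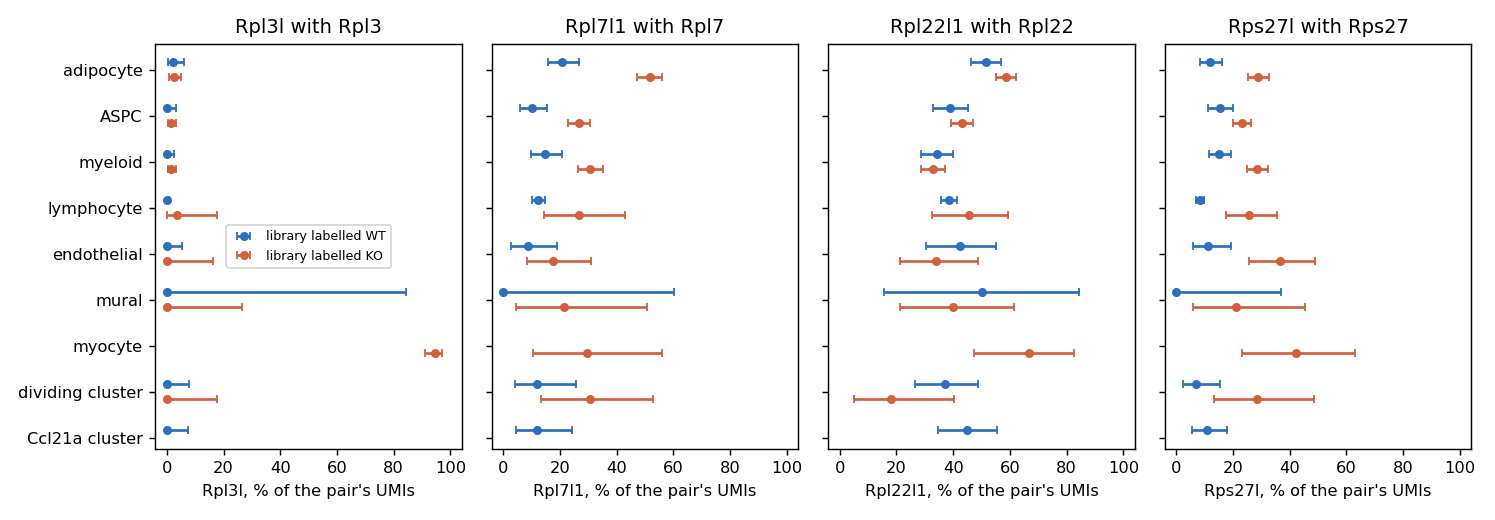
Share of a paralog in the summed UMIs of the paralog and its standard partner (percent, horizontal axis) by cell class and library, with exact 95% intervals, for 4 pairs. Rpl3l reaches 94.6% in myocyte nuclei and at most 3.45% in the other classes (with wide intervals where few UMIs were seen). Rpl7l1 is higher in adipocytes of the KO-labelled library (51.6%) than of the WT-labelled library (20.8%), and also in its ASPCs, myeloid nuclei and lymphocytes.

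Rpl22l1, a paralog of Rpl22, had 98.3 and 51.4 CPM in adipocytes (ratio 0.523, 0.441 to 0.623) and 181 and 116 CPM in lymphocytes (0.642). Among members with at least 50 UMIs there, it had the highest CPM in adipocytes relative to the remaining nuclei of the WT-labelled library, although still below them (ratio 0.624, 0.530 to 0.733), while the summed RP genes had 0.337. It took 51.6% of the UMIs of Rpl22 and Rpl22l1 in adipocytes of the WT-labelled library and 58.6% in the KO-labelled library, against 38.5% and 45.6% in lymphocytes and 34.1% and 32.8% in myeloid nuclei. In myocyte nuclei of the KO-labelled library it took 66.7% (47.2 to 82.7). Rpl36al took 48.3% and 54.1% of its pair with Rpl36a in adipocytes of the WT-labelled and KO-labelled libraries, and 33.3% and 53.8% in lymphocytes. Rpl39l, known from testis, had 0 UMIs in adipocytes of the WT-labelled library, which allows up to 1.54 CPM, and 19 UMIs (2.20 CPM) in the KO-labelled library. Rps27rt, a retrogene copy of Rps27, had 35.6 CPM in lymphocytes and 11.3 CPM in adipocytes of the WT-labelled library. Rps19bp1, which encodes a protein that binds Rps19 and is not a subunit, had 11.8 and 6.70 CPM in adipocytes.

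Among members with at least 50 UMIs in a class, the one with the highest CPM relative to the remaining nuclei was named. Being picked as the highest, it lies above the family sum by that choice, so the values are descriptions. In the WT-labelled library, the highest CPM relative to the remaining nuclei was that of Rpl7a in ASPCs (175 CPM, ratio 1.21), Rps27l in myeloid nuclei (65.0 CPM, 1.46), Rps27rt in lymphocytes (2.95) and Rpl3 in endothelial nuclei (412 CPM, 2.41), where the RP sum had 0.846, 0.938, 2.16 and 1.39. In the dividing cluster it was Rpl8 (473 CPM, 1.43). In the KO-labelled library it was Rps16 in ASPCs (229 CPM, 2.58), Rps29 in myeloid nuclei (494 CPM, 2.50), Rpl8 in lymphocytes (304 CPM, 3.30), Rpl30 in endothelial nuclei (310 CPM, 2.46), Rpl41 in mural nuclei (435 CPM, 1.62) and Rps27a in the dividing cluster (443 CPM, 2.73), where the RP sum had 1.88, 1.88, 2.36, 1.79, 1.22 and 1.94. Only 1 member in these mural nuclei, 4 in this dividing cluster and 29 in these endothelial nuclei had 50 UMIs, so that the lead there is among few. In adipocytes of that library it was Rps19bp1 (0.729), beside 0.320 for the RP sum. A few nuclei held much of the RP UMIs in some of these classes. In endothelial nuclei of the WT-labelled library 4 of 94 held 32.9%, and in the dividing cluster of the KO-labelled library 3 of 26 held 49.1%. Their part in these leads was not tested.

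The makeup of the RP RNA was compared between kept nuclei and the barcodes left out for low gene counts. In those barcodes Malat1 took 17.4% and 1.22% of UMIs in the libraries labelled WT and KO, and mitochondrial genes 8.99% and 11.8%. Of 80 members compared in adipocytes of the WT-labelled library, 7 had a lower and 11 a higher share of the RP UMIs than in barcodes with fewer than 500 genes, beyond counting error, and the median absolute log2 difference was 0.16. In lymphocytes of that library it was 14 lower and 16 higher of 82, with a median of 0.17, and in adipocytes of the KO-labelled library 18 and 16 of 82. Myocyte nuclei of that library had a median difference of 0.32, with 6 lower and 3 higher of 80. Some members fall past such an interval by counting error alone, and these counts have no background from other genes. Whether they exceed what counting error gives was not tested, so they are descriptions. Rpl22l1 had 2.48-fold and 2.43-fold the share in adipocytes of the libraries labelled WT and KO, and large subunit genes Rpl6 (1.90-fold and 1.87-fold) and Rpl10a (1.55-fold and 1.72-fold) were also higher in both. Rpl7l1 was 2.25-fold higher in the WT-labelled library and 13.1-fold higher (9.04 to 19.5) in the KO-labelled library. How much of the RP counts of a nucleus came from RNA outside it was not tested.

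Ribosomal proteins that the symbol rule misses were also lower in the KO-labelled library. Fau, which encodes a small subunit protein fused to a ubiquitin-like protein, had 245 and 69.9 CPM in adipocytes (0.286), and Rpsa, the laminin receptor-type small subunit protein, 150 and 48.9 CPM (0.325). Rack1, which encodes a scaffold protein of the small subunit, had 69.1 and 27.7 CPM (0.401). Of 6 elongation factor and related genes, 3 had a ratio of at most 0.5 in adipocytes and 0, 1 and 1 in ASPCs, myeloid nuclei and lymphocytes, beside 17.6%, 8.63%, 13% and 20.9% of all genes. Eef1a1, which brings aminoacyl-tRNA to the ribosome, had 273 and 159 CPM in adipocytes (0.584), Tpt1 192 and 95.8 CPM (0.499) and the translocase gene Eef2 74.2 and 30.6 CPM (0.413). All of these lay below 1 in adipocytes, beside a median of -0.01 over all genes.

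Initiation factors, biogenesis genes and mitochondrial RP genes were less uniform. In adipocytes, where 17.6% of all genes had a ratio of at most 0.5 and 25.9% of at least 2, their counts were as follows. Of 29 initiation factor genes measured in adipocytes, 10 had a ratio of at most 0.5 and 0 of at least 2 (median -0.80). The RNA helicase gene Eif4a2 had 452 and 96.3 CPM (0.213), and the scaffold gene Eif4g1 295 and 324 CPM (1.10). Of 31 ribosome biogenesis genes, 12 had a ratio of at most 0.5 in adipocytes (median -0.63), among them the nucleolar genes Gnl3 (194 and 48.8 CPM, 0.251) and Ncl, which encodes nucleolin (96.2 and 39.3 CPM, 0.408). Of 3 snoRNA host genes 1, and of 4 nuclear long RNAs 2, had a ratio of at most 0.5 in adipocytes, with Snhg12 at 0.460 and Kcnq1ot1 at 0.288. Genes for the proteins of the mitochondrial ribosome, which is encoded by a separate family, had 12 of 76 at most at 0.5 and 7 at least at 2 in adipocytes (median -0.43), the former near the share over all genes, with Mrps6 at 220 and 111 CPM (0.505) and Mrpl33 at 83.9 and 54.0 CPM (0.643). Relative to genes of the same intronic length, the mitochondrial family had a median of 0.13 in adipocytes, initiation factor genes -0.39 and biogenesis genes -0.54, beside -0.50 for the cytosolic family. Biogenesis genes were at -0.43, -0.59 and -0.51 in ASPCs, myeloid nuclei and lymphocytes, below the -0.16, -0.13 and -0.27 of the cytosolic family. Per nucleus, adipocytes held 11.1 and 16.9 UMIs of the mitochondrial family in the libraries labelled WT and KO, beside 50.8 and 43.5 of the cytosolic family.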

How the data were processed

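Single-nucleus RNA sequencing of 2 libraries was analysed. Per the file headers, the deposited UMI counts per gene and barcode were made by the authors with Cell Ranger 6.1.1, and the submitters' processing notes name mm10 and Seurat 4; whether intronic reads were counted was not given in the sources used here. Each library held 5000 barcodes, with 9376351 UMIs in the WT-labelled library and 19655049 in the KO-labelled library, so that depth differed between them. Barcodes with at least 500 genes and at most 5% mitochondrial UMIs were kept. Doublets were removed with Scrublet in scanpy 1.11.5 (92 barcodes of the KO-labelled library). In the WT-labelled library the automatic threshold marked 0, and the 4% with the highest scores (146) were removed. Nuclei were clustered in Seurat 5.3.0 (R 4.3.3) without the RP genes, with 2000 variable genes, 20 principal components and a Louvain resolution of 0.5. Clusters were named from marker lists. Markers passed when 5% of nuclei or more had a UMI and CPM reached 2 times that of other clusters on average, and a name needed 3 markers and a lead of 3. Lists and members were chosen with earlier results of these data known, and the motifs, depth windows and the limit of 200 RP UMIs after seeing the data.

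UMI counts were summed per class and library and scaled to CPM. Ratios have exact conditional binomial 95% intervals, and shares have exact Clopper-Pearson 95% intervals. A count of 0 was taken to allow up to 3 counts. Genes needed 50 counts over both libraries in a class. Named members were the 3 largest and 3 smallest ratios per main class, the 5 most abundant per library, the most class-enriched member, all paralogs and the stalk genes; list genes were the most counted of each list. Some genes that these rules name are not reported here. Intronic lengths came from a mouse annotation of another build, matched by gene ID, and 93.7% of the genes measured in adipocytes had one. The calculation of ratios and intervals was checked on simulated counts. These were independent Poisson counts drawn from a profile shared by both libraries, which is the model that the intervals assume. They held no spread between nuclei or mice, so the check cannot show how the intervals hold under such spread. There, 95.9% to 96.2% of the intervals held the true ratio. Of unchanged genes, 5.23% fell at or below 0.5 in lymphocytes, against 0.125% to 0.242% in the other main classes. Alternatives were other filters, clusterings, class definitions, thinning to 1000 UMIs, TMM scaling in edgeR 4.0.16 and an intronic length correction.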

Additional observations from a re-analysis of the deposited data

Results flagged for a closer look

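RP genes took a larger share of the UMIs of barcodes outside the filter than of kept nuclei. The levels in these barcodes entered no comparison between the libraries. Barcodes with fewer than 500 genes had 3.90% RP UMIs in the WT-labelled library (447 barcodes) and 4.13% in the KO-labelled library (1448 barcodes), beside 2.60% and 0.876% in kept nuclei. Their mitochondrial share was 8.99% and 11.8%, beside 1.53% and 1.25% in kept nuclei. Malat1 took 17.4% and 1.22% of their UMIs, beside 21.2% and 14.9%. Their RP UMIs per barcode were 38.1 and 41.4, below the 49.1 and 48.0 of kept nuclei. Barcodes with at least 500 genes and more than 5% mitochondrial UMIs had 4.03% and 2.41%, and 83.6 and 62.7 RP UMIs per barcode. Low-gene barcodes with at most 5% mitochondrial UMIs had 3.21% and 1.14%, so that the share in the KO-labelled library was lower there than in all its low-gene barcodes.

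In myeloid cluster 7 and ASPC cluster 8 the RP share was higher in the KO-labelled library (ratios 1.88 and 2.35), against ratios below 1 in their classes. RP UMIs per nucleus differed in direction between endothelial nuclei (ratio 0.488) and the dividing cluster (ratio 1.46). Without nuclei of at least 200 RP UMIs, of which the dividing cluster of the KO-labelled library had 3 among 26, both ratios were below 1 (0.696 and 0.871). The difference between these ratios was not tested, since there was 1 library per group.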

How the results depend on the processing

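The share ratio, labelled KO over labelled WT, stayed below 1 in 4 classes under 13 alternatives each (52 values, 0.347 to 0.915). Of these, 22 stayed within the counting interval of the reported value. The others are given as adipocyte, ASPC, myeloid and lymphocyte values where they moved. At least 1000 genes per barcode gave 0.462, 0.714, 0.669 and 0.486. The total without mitochondrial genes and Malat1 gave 0.347, 0.512, 0.486 and 0.480, thinning to 1000 UMIs 0.450, 0.570, 0.616 and 0.586, and nuclei of 2000 to 4000 UMIs, a choice made after seeing the data, 0.700, 0.764, 0.624 and 0.411. Correction for intronic length gave 0.707, 0.895, 0.915 and 0.830, which are medians of single members' ratios and not ratios of shares. Kept doublets gave 0.603 in ASPCs, 0.594 in myeloid nuclei and 0.535 in lymphocytes. Classes from the largest marker sum gave 0.421 in adipocytes, 0.609 in ASPCs and 0.478 in lymphocytes, and anchor integration 0.558 in myeloid nuclei and 0.546 in lymphocytes. In lymphocytes, clustering with the RP genes gave 0.536 and resolution 0.2 gave 0.614.

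With correction for intronic length, the members at or below 0.5 went to 2 from 66 in adipocytes, 0 from 5 in ASPCs, 0 from 12 in myeloid nuclei and 3 from 41 in lymphocytes. Without mitochondrial genes and Malat1 they numbered 30 in ASPCs and 46 in myeloid nuclei, and with TMM scaling 10 in ASPCs, beside 16.3%, 20.3% and 10.9% of all genes. The other 13 of 20 counts stayed within 1.5 times. Lymphocyte over adipocyte share stayed above 1 in both libraries under 5 alternatives each, chosen after seeing the data. In the WT-labelled library it was 2.78 without mitochondrial genes and Malat1, 2.80 thinned, 3.50 with 1000 genes, 3.40 by marker sum and 2.80 in nuclei of 2000 to 4000 UMIs. In the KO-labelled library it was 3.85, 3.64, 3.68, 3.86 and 1.65. No paired analysis was possible because each group had 1 library. Thinning left out 1009 of 2011 lymphocytes of the WT-labelled library, and lymphocytes of the KO-labelled library rest on 105 nuclei, which limits their single members most.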
